A study of Mus musculus with 10 samples.

Results

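The 10 genes described here mark fibroblasts and lipid-holding fibroblasts of the lung, and were measured in lung lobe RNA of mice with and without the gene Bpifb1. They were chosen by symbol and found by their Ensembl identifiers, and all 10 were present among the 47333 genes of the deposited table. The genes are Tcf21, Gli1, Wnt2, Fgf10, Pdgfra, Plin2, Ces1d, Inmt, Npnt and Pi16. Mice of the C57BL/6J strain background, 12 weeks of age and naïve, gave RNA of the right middle lobe. The 5 KO mice (1 male, 4 females) lacked Bpifb1, which encodes a secreted airway protein, and the 5 WT mice (2 males, 3 females) were wild type. The labels do not describe the allele and say that cages held both genotypes. The question asked is which genes differ when Bpifb1 is lost.

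Lung fibroblasts lie between the epithelium and the capillaries of the alveolus and in the sheath around vessels and airways. Those of the alveolus supply growth signals to epithelial cells, and some of them, the lipofibroblasts, store neutral lipid in droplets that is passed to type 2 cells for surfactant. Tcf21 is a basic helix-loop-helix transcription factor of this lineage, and Gli1 is a transcription factor and target of hedgehog signalling. Wnt2 and Fgf10 are secreted ligands, and Pdgfra is a receptor for platelet-derived growth factor. Plin2 coats lipid droplets. Ces1d is a carboxylesterase that hydrolyses lipid esters, and Inmt is a methyltransferase of small amines. Npnt encodes nephronectin, a matrix ligand of an integrin, and Pi16 marks the fibroblasts of the adventitia.

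The mice gave 21357424 to 28321294 counts each, with no detectable difference between genotypes (exact permutation p 0.833, two-sided). Bpifb1 measured 0.217 to 1.26 CPM (counts per 1000000 counts of the scaled library) in KO against 28.1 to 79.6 CPM in WT, as the genotype labels have it. KO replicate 5, labelled female, had 1.78 CPM of Xist, against 274 to 407 CPM in the other females, and 0 Y-linked counts. Results between the sexes are therefore also given without that mouse. Lung markers were high in every mouse, with Sftpc of type 2 cells at 12646 to 17396 CPM and Ager of type 1 cells at 2028 to 2744 CPM. All 11 fibroblast markers listed, among them Tcf21, Pdgfra, Npnt and Pi16, were detected. Their summed level was 3460 to 3822 CPM in KO against 2929 to 3673 CPM in WT. In RNA of a whole lobe, the number of fibroblasts and the RNA of these genes per fibroblast cannot be told apart.

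Promoter sequences are shown for Plin2, Inmt and Tcf21, the 3 genes of the set with an unadjusted p under 0.05 between the genotypes. They run from 250 bases before to 50 bases after the start of the RefSeq gene (GRCm38.p6), all on the minus strand of the chromosome. They lie at chr4:86670010-86670309, chr6:55174941-55175240 and chr10:22820094-22820393. Capitals mark the E-box form CAGCTG bound by helix-loop-helix factors, the nuclear receptor motif AGGTCA and the GC box GGGCGG, searched on both strands. Other forms of the E-box were not searched.
Plin2: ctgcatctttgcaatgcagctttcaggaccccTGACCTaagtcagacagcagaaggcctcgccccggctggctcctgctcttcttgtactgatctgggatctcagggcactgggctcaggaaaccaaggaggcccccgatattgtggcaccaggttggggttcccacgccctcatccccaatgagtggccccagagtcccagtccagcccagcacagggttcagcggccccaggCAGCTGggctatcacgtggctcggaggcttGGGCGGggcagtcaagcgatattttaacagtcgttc
Inmt: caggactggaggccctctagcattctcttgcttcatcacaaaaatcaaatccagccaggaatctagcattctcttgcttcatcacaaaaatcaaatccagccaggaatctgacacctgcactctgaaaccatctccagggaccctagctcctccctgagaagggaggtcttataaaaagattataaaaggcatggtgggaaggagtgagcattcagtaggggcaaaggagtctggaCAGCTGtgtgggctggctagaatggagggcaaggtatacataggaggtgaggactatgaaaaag
Tcf21: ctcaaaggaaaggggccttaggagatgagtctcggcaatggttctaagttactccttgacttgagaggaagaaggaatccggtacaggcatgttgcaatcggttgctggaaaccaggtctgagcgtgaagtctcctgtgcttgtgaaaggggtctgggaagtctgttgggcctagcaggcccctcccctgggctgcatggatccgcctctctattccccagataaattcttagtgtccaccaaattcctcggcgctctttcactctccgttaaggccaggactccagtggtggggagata
Plin2 has CAGCTG 16 bases before the start and Inmt has it 14 bases before the start, while these letters are not in the Tcf21 window. Of the 8 genes with an entry in the promoter table, 3 (Plin2, Inmt and Pi16) hold CAGCTG, as do 16.3% of all 32851 promoters of that length. The nuclear receptor motif stands in 2 of the 8 genes and in 16.3% of all promoters. The GC box stands in 4 of the 8 and in 35.7% of all. Neither the GLI motif TGGGTGGTC nor the direct repeat AGGTCANAGGTCA was found in the windows of the 8 genes, and they stand in 0.253% and 0.0396% of all promoters. None of these matches shows that a factor binds there.

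The 10 genes covered a wide range of levels when counts were set against exon length, as length-scaled abundance per library (TPM, mean ± SD over 10 mice). Inmt was highest at 2413 ± 232 TPM, followed by Ces1d at 591 ± 39.3 TPM and Npnt at 407 ± 51.4 TPM. The transcription factor Tcf21 stood at 124 ± 13.2 TPM. The ranges of these 4 genes over the mice did not overlap, nor did those of Tcf21 and the next gene. Pdgfra, at 84.9 ± 12.4 TPM, and Plin2, at 84.4 ± 7.83 TPM, overlapped, and Pdgfra was the higher of them in 7 of 10 mice. The ligand Wnt2 stood at 20.2 ± 3.75 TPM, Pi16 at 16.3 ± 2.40 TPM and Fgf10 at 12.6 ± 1.90 TPM. These 3 neighbours overlapped in range, with Wnt2 above Pi16 in 9 mice and Pi16 above Fgf10 in 10. Gli1 was lowest at 4.97 ± 0.711 TPM, below every value of Fgf10. The coefficient of variation over the mice was smallest for Ces1d (6.64%) and largest for Wnt2 (18.6%).

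**Figure D1:**
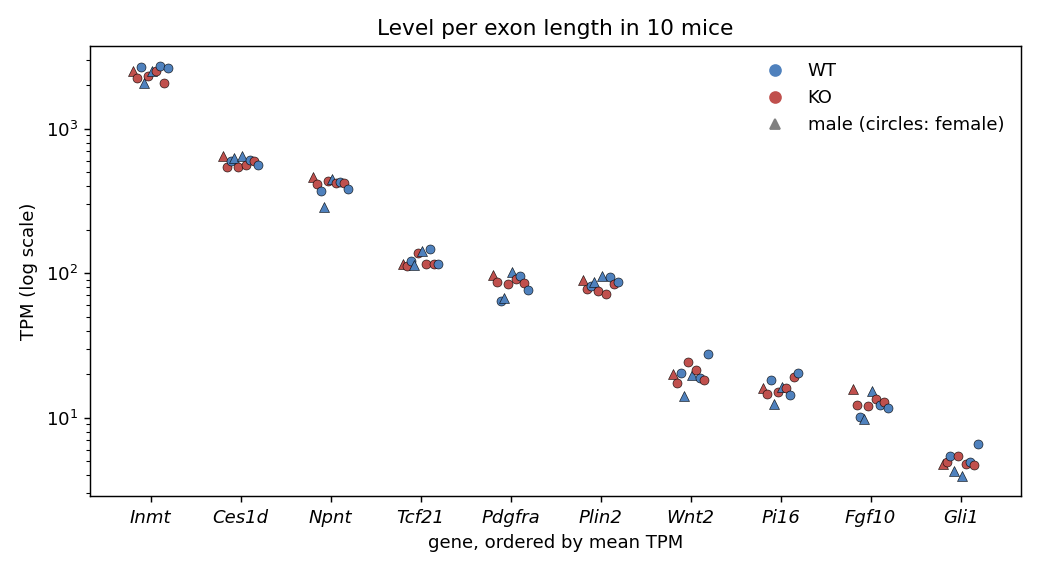
Level of each gene in TPM (log axis) in the 10 mice, ordered by mean, with WT in blue, KO in red, males as triangles and females as circles. Inmt lies near 2413 TPM and Gli1 near 4.97 TPM, and within each gene the 2 genotypes overlap.

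Between KO and WT mice, 0 of the 10 genes were called (adjusted p under 0.05, edgeR's quasi-likelihood test, sex as a covariate). Of all 18024 genes tested, 0.0222% were called. The adjusted p of the 10 genes ran from 0.124 for Plin2 to 0.738 for Wnt2. At an unadjusted p under 0.05 stood 3 of the 10, Plin2, Inmt and Tcf21, each lower in KO. Of all genes 17% stood below that p, 8.92% higher and 8.04% lower in KO. The median log2 fold change of the 10 genes was -0.11 (7 below 0), and that of all genes tested was -0.0027 (50.7% below 0). By limma-voom 0 of the 10 passed, and by the DESeq2 Wald test 1 passed, where 1.92% of all genes did. No gene of the 10 had CPM ranges of KO and WT that did not overlap, as 1.88% of all genes had. The 95% intervals of the fold change, not adjusted for the number of genes, reached down to 0.754 (Wnt2) and up to 1.25 (Fgf10), so each of the 10 intervals lies within those bounds.

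Plin2, the droplet coat gene, stood closest to the threshold (ENSMUSG00000028494; GRCm38 chromosome 4, 86648386 to 86670060, minus strand). It measured 125, 111, 107, 106 and 116 CPM in KO replicates 1 to 5 and 124, 143, 136, 134 and 126 CPM in WT replicates 1 to 5. Of the KO mice 4 lay below every WT mouse, and KO replicate 1, the KO male, lay just above the lowest WT value. The mean was 113 ± 7.77 CPM in KO against 133 ± 7.93 CPM in WT (SD, 5 mice each). The log2 fold change came to -0.20 (SE 0.05; adjusted p by edgeR 0.124), a fold of 0.87 with a 95% interval of 0.811 to 0.935. By unadjusted p it was in place 139 of 18024. The DESeq2 Wald test called it (log2 fold change -0.20, adjusted p 0.00788), and no other alternative setting did. In its 17 alternative settings the log2 fold change lay between -0.23 and -0.17 and the adjusted p between 0.00788 and 0.294. Plin2 is also made by cells other than fibroblasts. The type 2 cell markers were lower in KO in 5 of 7 genes (4 of them at an unadjusted p under 0.05 by edgeR). Of all genes tested 50.7% were lower in KO, and 8.04% were lower at that p. The type 2 markers had a summed level of 20607 to 23534 CPM in KO against 21374 to 25725 CPM in WT. The 8 alveolar macrophage markers summed to 582 to 818 CPM in KO against 700.0 to 852 CPM in WT. Of these 8, 5 were lower and 3 higher in KO, with 0 at an unadjusted p under 0.05. None of the markers of either list was at 0. Their part in the Plin2 values was not tested. Of the 50-base windows of Plin2 transcripts, 2.57% also occur in Gm12551, and its estimated counts were not whole numbers in all 10 mice, so a few reads may have been shared out between these genes.

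**Figure D2:**
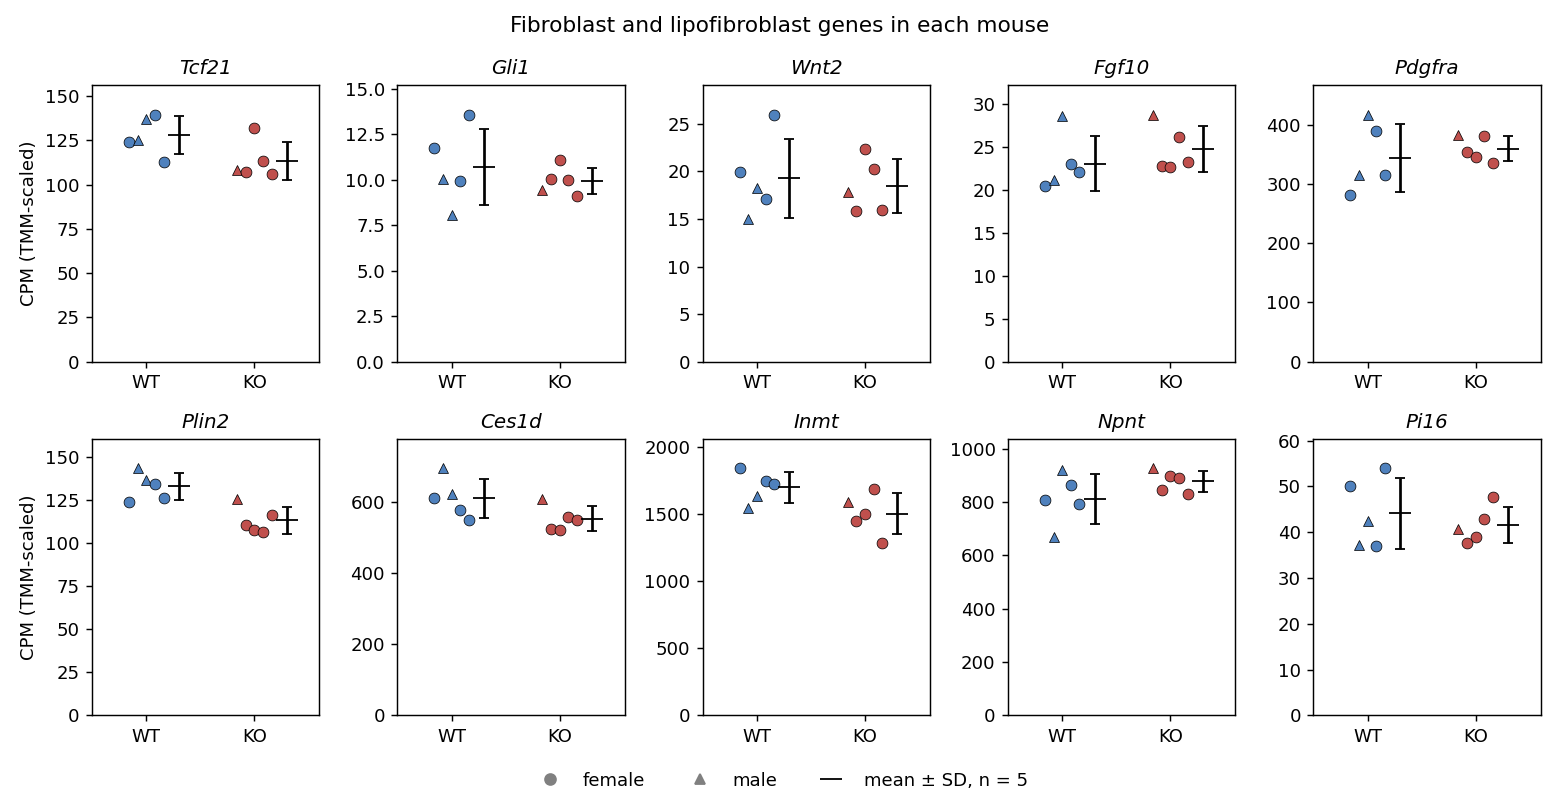
CPM of each of the 10 genes in every mouse (axes start at 0), with WT in blue, KO in red, males as triangles, females as circles, and the mean ± SD of 5 mice beside them. The genotypes overlap in every panel, and in Plin2 4 of the 5 KO mice lie below the WT mice.

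The enzymes of the set had the highest length-scaled levels (TPM) among the 10. Inmt (ENSMUSG00000003477; chromosome 6, 55170626 to 55175043, minus strand) measured 1589, 1449, 1504, 1691 and 1287 CPM in KO replicates 1 to 5 and 1844, 1547, 1636, 1746 and 1729 CPM in WT replicates 1 to 5. All 5 KO mice lay below the WT median and 3 below every WT mouse. The log2 fold change came to -0.19 (SE 0.08; adjusted p by edgeR 0.245; 95% interval of the fold 0.785 to 0.985). Without single mice it lay between -0.26 (without KO replicate 1) and -0.14 (without KO replicate 5, the lowest mouse).

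Ces1d (ENSMUSG00000056973; chromosome 8, 93166068 to 93197838, minus strand) measured 609, 524, 521, 558 and 549 CPM in KO and 612, 695, 621, 578 and 549 CPM in WT replicates 1 to 5. The lowest WT mouse lay among the KO values. Its log2 fold change was -0.11 (SE 0.05; adjusted p by edgeR 0.326; 95% interval of the fold 0.856 to 1.01). Ces1d belongs to a cluster of related esterase genes, but 1.08% of its 50-base windows occur in another gene (Ces1b, Ces1g or Ces1f). Of 15 other carboxylesterase genes 8 were abundant enough to be tested. None of the 8 was called by edgeR or stood at an unadjusted p under 0.05, and their median log2 fold change was 0.02. Ces2e (3.78 ± 0.743 CPM in KO, 3.05 ± 0.768 CPM in WT mice), Ces2g and Ces2c had the smallest p of them, from 0.155 to 0.208.

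Of the transcription factors, Tcf21 (ENSMUSG00000045680; chromosome 10, 22817281 to 22820174, minus strand) measured 108, 107, 132, 113 and 106 CPM in KO and 124, 125, 137, 140 and 113 CPM in WT replicates 1 to 5. KO replicate 3 was as high as the WT mice, and WT replicate 5 was as low as the KO mice. The mean was 113 ± 10.8 CPM in KO against 128 ± 10.7 CPM in WT (SD, 5 mice each). The genotypes differed by a log2 fold change of -0.17 (SE 0.08; adjusted p by edgeR 0.27; 95% interval of the fold 0.792 to 0.993). Without single mice it lay between -0.23 and -0.13.

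Gli1 (ENSMUSG00000025407; chromosome 10, 127329882 to 127341974, minus strand) ranged from 9.13 to 11.1 CPM in KO and from 8.07 to 13.6 CPM in WT mice, so the KO range lay within that of WT. Its log2 fold change was -0.15 (SE 0.10; adjusted p by edgeR 0.476), and without single mice it lay between -0.23 (without KO replicate 1) and -0.05 (without WT replicate 5, the mouse with the highest value). In females alone, as labelled and with KO replicate 5 among them, it was -0.23. Its exons overlap those of Arhgap9 and Gm47200 on the other strand, and whether counting used strand is not given in the sources used here. Of 16 other hedgehog pathway genes 15 were tested and none was called by edgeR or had an unadjusted p under 0.05. Their median log2 fold change was 0.04. The receptor gene Ptch1, itself a target of the pathway, measured 97.2 ± 6.63 CPM in KO against 89.2 ± 8.35 CPM in WT (log2 fold change 0.10, edgeR adjusted p 0.457). The co-receptor gene Gas1 had a log2 fold change of -0.13 and the transcription factor gene Gli3 one of 0.14 (edgeR adjusted p 0.435 and 0.451).

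The ligand Wnt2 (ENSMUSG00000010797; chromosome 6, 17988940 to 18030585, minus strand) ranged from 15.8 to 22.4 CPM in KO and from 15.01 to 26.0 CPM in WT mice. Its log2 fold change was -0.11 (SE 0.14; adjusted p by edgeR 0.738) and without single mice it lay between -0.19 (without KO replicate 1) and 0.03 (without WT replicate 5, which had the highest value). All 31 other Wnt pathway genes were tested, and edgeR called none. At an unadjusted p under 0.05 stood 2 higher (the co-receptor Lrp6 and the receptor Fzd1) and 1 lower (the receptor Fzd2). Lrp6 measured 128 ± 7.11 CPM in KO against 110.5 ± 17.3 CPM in WT (log2 fold change 0.25, edgeR adjusted p 0.188), while Axin2, a common target of the pathway, had a log2 fold change of 0.05 (edgeR adjusted p 0.653). The median of the list was 0.01. Rspo2, a secreted enhancer of Wnt signalling, was the only gene of these 31 whose ranges did not overlap, where 1.88% of all genes had such ranges. It measured 0.342 ± 0.0346 CPM in KO against 0.490 ± 0.0559 CPM in WT (log2 fold change -0.53, edgeR adjusted p 0.332). It was named after its values were seen and rests on 7 to 16 counts per mouse.

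Fgf10 (ENSMUSG00000021732; chromosome 13, 118669791 to 118792115, plus strand) measured 28.7, 22.7, 22.6, 26.1 and 23.2 CPM in KO and 20.4, 21.2, 28.5, 23.0 and 22.1 CPM in WT replicates 1 to 5. All 5 KO mice lay above the WT median, and WT replicate 3 was nearly as high as the highest KO mouse. The log2 fold change came to 0.14 (SE 0.08; adjusted p by edgeR 0.385). It lay between 0.09 (without WT replicate 2) and 0.19 without single mice. Exons of the antisense gene Gm16263 overlap those of Fgf10. Of 17 other genes of Fgf10 signalling 15 were tested and edgeR called none, with 2 higher and 2 lower at an unadjusted p under 0.05. Bmp4, a growth factor gene of the developing and adult lung, measured 78.9 ± 3.82 CPM in KO against 88.3 ± 7.37 CPM in WT (log2 fold change -0.19, SE 0.05; adjusted p by edgeR 0.133, DESeq2 adjusted p 0.0201). The transcription factor gene Etv5 had a log2 fold change of -0.15 and the inhibitor gene Spry4 one of 0.24 (edgeR adjusted p 0.235 and 0.257). Both are targets of this signalling, and their values point in opposite directions.

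The receptor Pdgfra (ENSMUSG00000029231; chromosome 5, 75152292 to 75198215, plus strand) measured 383, 354, 345, 381 and 336 CPM in KO and 281, 314, 417, 389 and 315 CPM in WT replicates 1 to 5. The KO mice lay within the wider WT range. The log2 fold change came to 0.10 (SE 0.09; adjusted p by edgeR 0.639) and lay between 0.03 (without WT replicate 1) and 0.19 (without WT replicate 4) without single mice. Antisense genes overlap its exons. All 6 other PDGF genes were tested and none was called by edgeR. The second receptor, Pdgfrb, a gene of pericytes and fibroblasts, measured 163 ± 15.7 CPM in KO against 140 ± 15.9 CPM in WT (log2 fold change 0.18, edgeR adjusted p 0.249), and was alone among these 6 in having an unadjusted p under 0.05. Pdgfrl and Pdgfc had log2 fold changes of -0.20 and -0.16 (edgeR adjusted p 0.469 and 0.583). The 6 pericyte markers summed to 611 to 716 CPM in KO against 519 to 642 CPM in WT. Pdgfrb itself and Postn (305 ± 18.5 CPM in KO) are among the 6 and make up most of that sum. Of the 6, 4 were higher and 2 lower in KO. At an unadjusted p under 0.05 stood 2 higher (Postn and Pdgfrb) and 1 lower, Higd1b (log2 fold change -0.21, edgeR adjusted p 0.2). Of all genes 8.92% were higher and 8.04% lower at that p. The part of pericytes in the Pdgfrb values was not tested.

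The matrix gene Npnt (ENSMUSG00000040998; chromosome 3, 132881745 to 132950291, minus strand) measured 926, 846, 895, 889 and 828.8 CPM in KO and 807, 669, 918, 864 and 794 CPM in WT replicates 1 to 5. All 5 KO mice lay above the WT median. The log2 fold change came to 0.12 (SE 0.08; adjusted p by edgeR 0.467), and without single mice it lay between 0.06 (without WT replicate 2, the lowest mouse) and 0.16 (without WT replicate 3). Pi16 (ENSMUSG00000024011; chromosome 17, 29317680 to 29330593, plus strand) ranged from 37.6 to 47.6 CPM in KO and from 37.0 to 54.0 CPM in WT mice, with a log2 fold change of -0.12 (SE 0.11; adjusted p by edgeR 0.609). Without single mice it lay between -0.20 (without WT replicate 4, the lowest mouse) and -0.03 (without WT replicate 5, the highest). An antisense gene overlaps exons of Pi16.

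**Figure D3:**
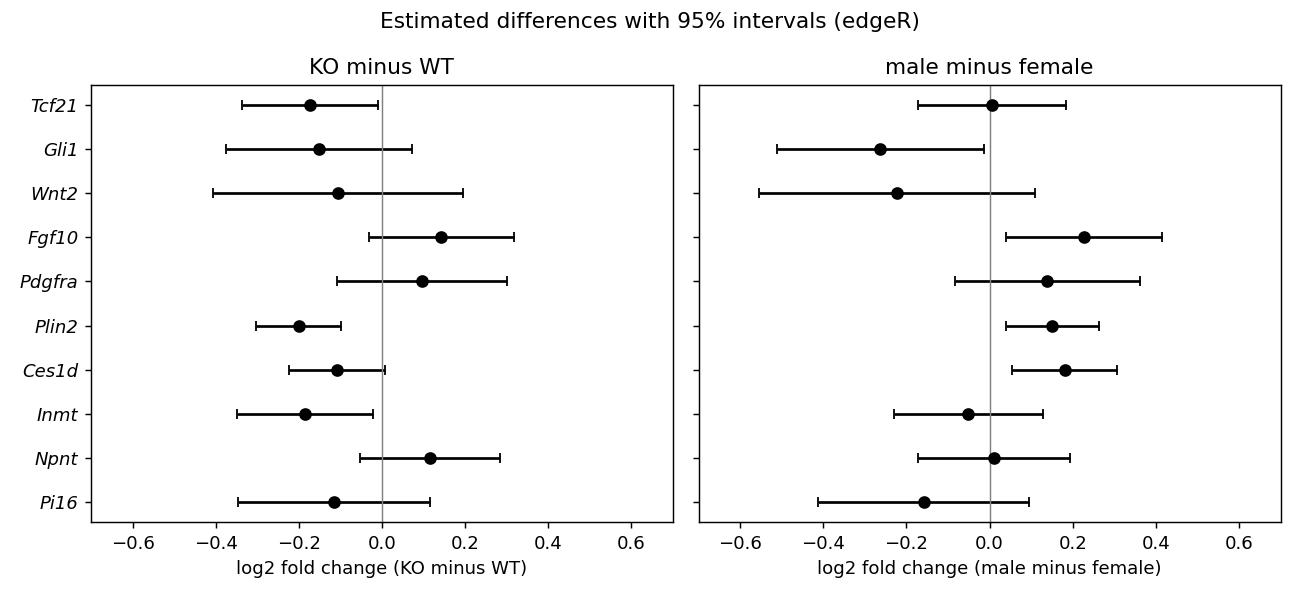
Log2 fold change of each gene with its 95% interval from edgeR, KO minus WT on the left and male minus female on the right. Intervals for Plin2, Inmt and Tcf21 lie below 0 on the left, and on the right those of Fgf10, Plin2 and Ces1d lie above 0 and that of Gli1 below 0, but no gene passed an adjusted p under 0.05.

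Genes of fibroblast types, and of the pathways and families of the 10, were counted from lists. These lists, like the 10, were chosen with earlier results of these data known. Some of their genes also mark other cells, such as Plin1 and Cidec of adipocytes, Etv5 of type 2 cells and Postn of pericytes. The adipocyte markers summed to 113 to 288 CPM in KO and 60.1 to 303 CPM in WT mice. Over the 9 lists, 144 of 156 genes were tested and edgeR called 0. At an unadjusted p under 0.05 stood 10 higher and 9 lower (13.2%, against 17% of all genes). limma-voom called 0 and the DESeq2 Wald test called 3, Hilpda, Bmp4 and Postn. The list of lipid and retinoid handling had the lowest median log2 fold change of the 9 lists, -0.13 over 21 tested genes. Of these, 15 lay below 0 (71.4%, against 50.7% of all genes). An unadjusted p under 0.05 was reached by 3 of them (14.3%, against 17% of all genes). All 3 were lower in KO, as were 8.04% of all genes at that p. Hilpda, which encodes an inhibitor of lipolysis on the lipid droplet, measured 48.4, 60.2, 53.0, 51.3 and 53.5 CPM in KO and 59.2, 62.2, 64.2, 64.8 and 63.8 CPM in WT replicates 1 to 5. Only KO replicate 2 lay above the lowest WT mouse. Its log2 fold change was -0.25 (SE 0.06; adjusted p by edgeR 0.121, DESeq2 adjusted p 0.0188). Plin3, another droplet coat gene, had a log2 fold change of -0.13, and the lipase gene Pnpla2 one of -0.14 (edgeR adjusted p 0.235 and 0.279). Pparg, the regulator of fat storage genes, had one of -0.05 (edgeR adjusted p 0.809), and the lipoprotein lipase gene Lpl one of 0.02 (edgeR adjusted p 0.958).

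The 16 alveolar fibroblast genes had a median log2 fold change of 0.02, with 2 at an unadjusted p under 0.05, both higher. These were Foxf1, a transcription factor of the lung mesenchyme (303 ± 26.6 CPM in KO, 259.9 ± 20.7 CPM in WT mice; log2 fold change 0.24, edgeR adjusted p 0.166), and Tbx5 (log2 fold change 0.14, edgeR adjusted p 0.239). The integrin gene Itga8, whose product binds nephronectin, measured 281 ± 21.5 CPM in KO against 245 ± 37.2 CPM in WT (log2 fold change 0.20, edgeR adjusted p 0.337). The 14 adventitial genes had a median of -0.03, with Col15a1 higher and Adh7 and Dpep1 lower at an unadjusted p under 0.05 (edgeR adjusted p 0.226, 0.225 and 0.272). The 18 genes of activated fibroblasts had a median of 0.05. Among them the matrix gene Postn had a log2 fold change of 0.24 (305 ± 18.5 CPM in KO, 259.7 ± 21.9 CPM in WT mice; edgeR adjusted p 0.144, DESeq2 adjusted p 0.0284). Timp1, an inhibitor of matrix proteases, had one of -0.31 (edgeR adjusted p 0.195). Of the 11 fibroblast markers 9 had a log2 fold change above 0 and none was called by edgeR, Tcf21 being the 1 gene with an unadjusted p under 0.05.

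**Figure D4:**
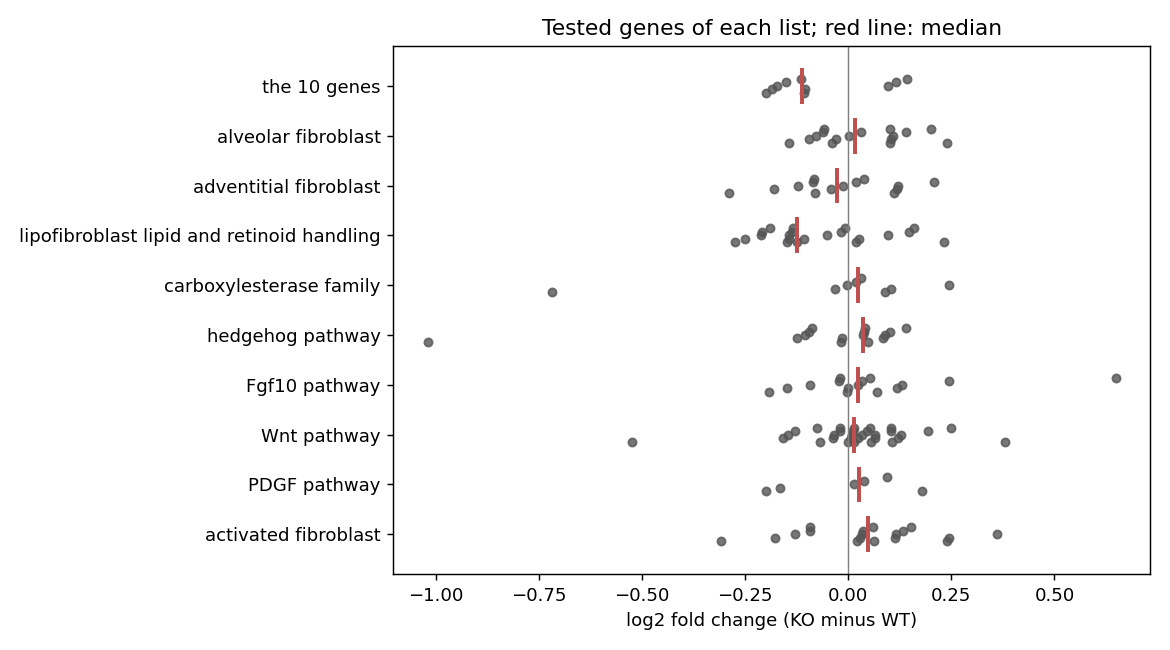
Log2 fold change, KO minus WT, of every tested gene in the set of 10 and in each list, with the median as a red line. The medians of the 10 genes (-0.11) and of lipid and retinoid handling (-0.13) lie below 0, and the medians of the other lists lie between -0.03 and 0.05.

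Sex was the other label, with 3 males and 7 females. edgeR called 0 of the 10 genes between the sexes, where it called 0.583% of all genes. At an unadjusted p under 0.05 stood 3 higher in males (Ces1d, Plin2 and Fgf10) and 1 lower (Gli1), where 15.1% of all genes stood below that p, 7.34% higher and 7.79% lower in males. limma-voom called 0 and the DESeq2 Wald test called 1 of the 10, Ces1d, where 2.42% of all genes were called. Ces1d measured 609 CPM in the KO male and 521 to 558 CPM in the KO females. In WT mice it measured 621 to 695 CPM in males and 549 to 612 CPM in females. The log2 fold change came to 0.18 (SE 0.06; adjusted p by edgeR 0.17, DESeq2 adjusted p 0.0346). Plin2 measured 125 CPM in the KO male against 106 to 116 CPM in the KO females, and 136 to 143 CPM in the WT males against 124 to 134 CPM in the WT females (log2 fold change 0.15, SE 0.05; adjusted p by edgeR 0.19). Males thus lay above all females of their own genotype in Ces1d and Plin2, which held for 4.93% of all genes, and lay below them in 0 of the 10, against 5.74% of all genes. Fgf10 had a log2 fold change of 0.23 and Gli1 one of -0.26 (edgeR adjusted p 0.243 and 0.302). Of the 144 list genes tested, edgeR called 1 higher in males, from the carboxylesterase list, and 1 lower. The lower one was Col14a1, an adventitial gene and fibroblast marker (log2 fold change -0.35, edgeR adjusted p 0.029). Without KO replicate 5 the male minus female values were 0.18 for Ces1d, 0.16 for Plin2, 0.22 for Fgf10 and -0.28 for Gli1, and 0 of the 10 were called. Without WT replicate 3, a male, Fgf10 came to 0.13 and Gli1 to -0.15, and leaving out the other mice in turn took them as far as 0.33 and -0.38. Whether the genotype difference depends on sex was not tested, since 1 KO mouse was male. In females alone (4 KO, 3 WT) the KO minus WT log2 fold change of Plin2 was -0.22 and that of Inmt -0.26 (edgeR adjusted p 0.207 and 0.254). The 4 KO mice of this fit include KO replicate 5, whose Xist level was unlike that of the other females. With both sexes but without KO replicate 5, Plin2 came to -0.22 and Inmt to -0.14.

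The 10 genes did not vary together as a single block across the mice. Of the 45 pairs 21 had a positive Pearson correlation of log2 CPM, and 7 had an unadjusted permutation p under 0.05, but none passed after Benjamini-Hochberg adjustment over the 45 pairs. Fgf10 and Pdgfra were closest by Pearson r (r = 0.85, permutation p 0.00142, adjusted 0.0639; Spearman's rho 0.84, permutation p 0.00337, adjusted 0.0758). Without the 2 mice farthest from the median of Fgf10 r was 0.82, and with the genotype means removed it was 0.84. Plin2 and Ces1d came next (r = 0.82, permutation p 0.00323, adjusted 0.0727; rho 0.75, permutation p 0.0177, adjusted 0.149), with r = 0.83 without the 2 farthest mice and 0.73 with the genotype means removed. In Plin2 and in Ces1d the males lay above the females of their genotype. The part of sex in their correlation was not tested. Gli1 and Pdgfra ran in opposite directions (r = -0.70, permutation p 0.0219, adjusted 0.203; rho -0.73, permutation p 0.0198, adjusted 0.149), with r = -0.60 without the 2 farthest mice. So did Gli1 and Fgf10, with r = -0.66 (permutation p 0.0368, adjusted 0.237). Their rho of -0.85 (permutation p 0.00281, adjusted 0.0758) was the largest in size of the 45 pairs.

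The genes most alike to each of the 10 over the 10 mice were the 3 with the highest Pearson r of log2 CPM among all tested genes. Being picked as the highest, these r values are a description. For Plin2 they were Mettl7a3 (0.98), Fst (0.93) and Trim10 (0.92). For Pdgfra they were Jcad, Gab1 and Erc1 (each 0.97), and for Npnt Tbc1d5 (0.98), Tfpi (0.97) and Ltbp1 (0.95). Ces1d had Hdgf (0.95), Adipor1 (0.95) and Ormdl3 (0.93), and Inmt had Zfp952 (0.96), Rnase4 (0.93) and Lgmn (0.93). For the remaining genes none of the 3 was among the 3 highest by Spearman's rho. Those were Usp4, Ess2 and Gm9025 for Tcf21 (0.88 to 0.90), Mzt2, Gpsm2 and C1qtnf2 for Gli1 (0.92 to 0.96), and Gm13502, Dync2li1 and H2-Q1 for Wnt2 (0.90 to 0.92). They were Vkorc1l1, Sntb2 and Sh3d19 for Fgf10 (0.94 to 0.97) and Fabp3-ps1, Eno3 and Cox8b for Pi16 (0.91 to 0.95).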

How the data were processed

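The authors deposited a table of estimated counts per gene, not scaled between samples. Per the submitters' processing notes STAR 2.6.0 and Salmon 0.9.1 were used with mm10/GRCm38. Annotation, filters and strand setting are not given in the sources used here. GENCODE M21 gave symbols, coordinates and exon lengths by identifier (47281 of 47333 matched), and promoters from RefSeq. Counts were rounded and scaled by TMM. filterByExpr by genotype (minimum count 10, total 15) left 18024 genes, among them all 10 described. edgeR 4.0.16 (R 4.3.3, robust quasi-likelihood test) fitted sex and genotype over all mice, with Benjamini-Hochberg adjustment over all genes; calls needed an adjusted p under 0.05. Standard errors are the absolute log2 fold change over the square root of F. DESeq2 1.42.0 (its own filter on mean counts off), limma 3.58.1, other scaling and filters, no covariate, females alone and leaving out each mouse were alternatives. Likeness and correlations used log2 CPM with a prior count of 2, and correlation p-values used 100000 resamples. The fit was also run on simulated data, whose outcome is not reported here and lends no weight to the results above. Counts of 3, taken as the floor, equal 0.104 to 0.143 CPM, for counting error only. Nothing in the labels says more of how the mice were sampled, so p-values measure the spread between these samples. Members and lists were chosen with earlier results of these data known. All 10 were named, with up to 3 genes per list by smallest p, called genes and the 3 most alike genes; Rspo2, Axin2, Pparg and Lpl were added after their values were seen. A gene that this rule names is not reported here.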

Additional observations from a re-analysis of the deposited data

How the results depend on the processing

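No paired analysis was possible because replicate numbers only name the mice in accession order, and the labels tie no KO mouse to a WT mouse. Between the genotypes 0 of the 10 genes and 0 list genes were called in the alternatives run, except by the DESeq2 Wald test, which called 1 (Plin2, -0.20) and 3. Over all genes the count of 4 became 50 with no filter on low counts, 346 by DESeq2, 2 by limma-voom, and 2 to 18 without single mice. Between the sexes the DESeq2 Wald test called 1 of the 10 (Ces1d). The count of 105 over all genes became 197 with no filter on low counts, 436 by DESeq2, 41 with no covariate and 0 to 195 without single mice (0 without KO replicate 1, the KO male). The causes were not tested. Between the genotypes Wnt2 lay between -0.19 and 0.035 without single mice and turned to 0.035 without WT replicate 5. Between the sexes Tcf21 (0.0059 with all mice) lay between -0.042 and 0.063 without single mice and was below 0 in 5 such fits. Npnt (0.01 with all mice) turned to -0.0025 by limma-voom and -0.014 with no covariate, and lay between -0.085 and 0.13 without single mice (below 0 without KO replicate 1 and without WT replicate 3). With the longest transcript as length, mean TPM moved to 2971 for Inmt, 103 for Pdgfra, 130 for Plin2 and 21.5 for Pi16, which put Plin2 above Pdgfra and Pi16 above Wnt2. In WT mice alone Plin2 also stood above Pdgfra. With Spearman's rho 1 of the 3 genes most alike to Npnt was shared.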
